A study of Homo sapiens with 16 samples.

Results

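The genes described are EEF1A1, EEF1B2, EEF1D, EEF1G, EEF1E1, EEF2, EEF2K and EIF5A, 8 of the 60107 genes in the count files. Together they are called elongation factors here. Among them EEF2K encodes a kinase that acts on eEF2, and EEF1E1 a scaffold protein of the multi-tRNA synthetase complex. The others encode factors of translation elongation. All 8 were chosen by name, and their Ensembl identifiers were matched to symbols in GENCODE release 44. During elongation the GTPase eEF1A, made from EEF1A1, delivers aminoacyl-tRNA to the ribosome, and the eEF1B complex, whose subunits are made from EEF1B2, EEF1D and EEF1G, recharges eEF1A with GTP. eEF2 then moves the ribosome to the next codon, and phosphorylation of eEF2 by the kinase eEF2K stops it. Many mRNAs of the translation machinery start at the cap with a C and a run of pyrimidines, the 5′-terminal oligopyrimidine (TOP) sequence, through which mTOR signaling and the cap-binding protein LARP1 control their translation.

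Cytoplasmic RNA came from U2OS-TR, human osteosarcoma cells in which the tetracycline repressor is stably expressed, with or without a ΔN-RNMT transgene. ΔN-RNMT is an inactive form of RNMT, the enzyme that methylates the mRNA cap, and it lacks the nuclear localization sequences and carries an added export signal, so that it stays in the cytoplasm. In the study's methods the transgene is under tetracycline operator control, was selected with G418, and the line is 1 clone chosen for its strong induction. Of the 16 libraries, 5 came from uninduced and 5 from induced U2OS-TR/ΔN-RNMT cells, and the parental U2OS-TR line gave 3 untreated and 3 doxycycline-treated ones. Doxycycline was given at 1 μg/ml, 48 h after the cells were split, for 24 h. The protocol in the labels lists this dose for every library, the study's methods for the treated cells alone, and the latter was used here. The induced cells therefore differ from the uninduced cells by both doxycycline and ΔN-RNMT, and the parental cells by doxycycline alone. The libraries hold sequence tags next to the poly(A) tail, made with the QuantSeq REV kit, and the parental libraries were sequenced at another facility, on another instrument and with another read length. Levels are given as CPM, each gene's counts relative to the library's summed counts of genes with a base mean above 20 in that line. They were scaled by TMM factors within each line and are not compared between the lines.

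The first bases of the mRNAs are shown because the TOP sequence lies there. RefSeq starts on GRCh38.p14 were found for 7 of the 8 genes, all but EEF1D, 13 starts in all. Each line shows 30 bases, of which 5 precede the annotated start and 25 begin with it. Capitals mark a C followed by at least 4 bases that are C or T, which would start at the sixth base if the run opens the transcript. EEF1A1, EEF1B2 and EEF2 had such a run at an annotated start, for EEF1B2 at the second of its starts, and EEF1G and EEF1E1 had none.
EEF1A1, chr6:73521008-73521037, reverse strand: acgttCTTTTTCgcaacgggtttgccgcca
EEF1B2, second start, chr2:206159890-206159919, forward strand: cgggtCCTTTTTCCTCTCTTCagcgtgggg
EEF2, chr19:3985439-3985468, reverse strand: gcgttCTCTTCCgccgtcgtcgccgccatc
EEF1G, chr11:62573867-62573896, reverse strand: ggcttactttgcggcagcgccgagaacccc
EEF1E1, chr6:8102524-8102553, reverse strand: gtctcgcgtctgccaggagctacggccgga

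The motif was read on the transcribed strand. Of all 35116 RefSeq starts, 4.07% had such a run at the start, and 21.1% had one that started within 5 bases of it. EEF2K had a run of 5 pyrimidines that began 5 bases upstream of its start, and none of the 6 starts of EIF5A had one in this window. An annotated start need not be the start used in these cells, and 5′ ends were not measured in these libraries.

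Gene counts ranged from 12527183 to 23251834 per library in the transgene line and from 1473286 to 3214808 in the parental line. RNMT, which checks the labels, was higher in every induced library, at 74.3 ± 22.4 CPM (SD, n = 5) uninduced and 346 ± 78.0 CPM (SD, n = 5) induced, with a log2 fold change of 2.22 (adjusted P = 0.00805, edgeR, Benjamini-Hochberg). Whether these tags came from the transgene or the endogenous gene was not tested. Of 8 bone cell markers, COL1A1 and RUNX2 were above 1 CPM on average in every group, SPP1 in the parental groups alone, and SP7 and BGLAP had 0 counts in all 16 libraries. Of 7 markers of other cells, EPCAM was above 1 CPM on average in every group, CDH1 in the induced group alone (1.64 ± 0.812 CPM, against 0.515 ± 0.708 CPM uninduced, SD, n = 5 each), and ALB had 0 counts throughout. RUNX2 rose on induction, with a log2 fold change of 1.16 (adjusted P = 0.0175, edgeR), and that of EPCAM was 0.61 (adjusted P = 0.0772, edgeR). The part of these markers in the results was not tested. The summed CPM of 4 RNAs kept in the nucleus was 737 to 931 in the uninduced, 492 to 897 in the induced, 471 to 1663 in the untreated parental and 270 to 453 in the treated parental libraries. Uninduced replicate 5 stood on the side of the induced libraries for several of the genes below, and induced replicate 2 on the side of the uninduced ones. In bulk RNA, fewer cells with an mRNA and less of it per cell cannot be told apart.

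Induction of ΔN-RNMT was followed by unlike changes among the elongation factor mRNAs. By their counted tags, EEF1D, EEF1G and EEF2 fell, EEF1A1 and EEF1E1 rose, and EEF1B2, EEF2K and EIF5A did not pass the test. All 8 genes passed the filter on a base mean above 20, so 3 of 8 were called lower and 2 of 8 higher by edgeR's quasi-likelihood test at a Benjamini-Hochberg adjusted P below 0.05. Of all 13038 genes tested, 39.8% were called, 19.8% lower and 20.0% higher, and with scaling to total counts alone 10.7% were called lower and 30.8% higher. EEF2 was the only one of the 8 whose uninduced and induced values did not overlap, which 7.30% of the tested genes shared. Over the 8 genes the median change was −0.17 on the log2 scale, beside 0.04 for all genes tested. The number of calls moved with the library left out, among the 8 genes as among all genes. Without uninduced replicate 5, induced replicate 2 or induced replicate 5, the counts were again 3 lower and 2 higher, in fits that called 58.5%, 48.8% and 28.6% of all genes tested. Without uninduced replicate 3 or 4 they were 2 lower and 2 higher, beside 28.8% and 25.3% of all genes. They were 1 lower and 1 higher without uninduced replicate 1 or 2 or induced replicate 1 or 3, beside 19.6%, 16.6%, 14.3% and 17.6% of all genes, and 0 lower and 2 higher without induced replicate 4, beside 14.5%. With 1 surrogate variable in the model 0 of the 8 were called in either direction, beside 1 of all genes tested.

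**Figure D1:**
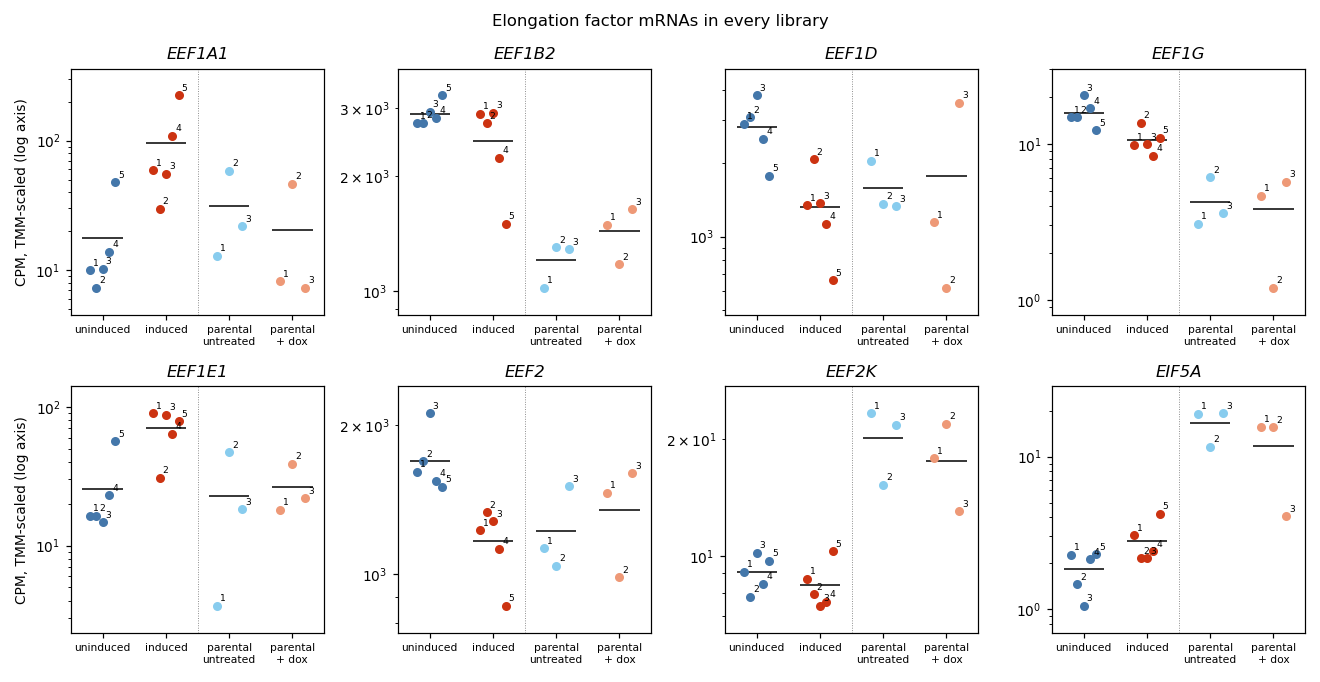
Level of each elongation factor mRNA in all 16 libraries, in CPM on a log axis whose range differs between panels. Points are libraries with their replicate number, black lines are group means, and the dotted line separates the transgene line from the parental line, which was scaled separately. EEF2 is the panel in which all 5 induced libraries lie below all 5 uninduced ones.

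EEF1A1 (ENSG00000156508, chromosome 6 from 73489308 to 73525587, reverse strand) encodes eEF1A1, the form of the tRNA-delivering GTPase found in most tissues. The uninduced libraries held 10.0, 7.31, 10.2, 13.9 and 47.6 CPM of it, in the order of replicates 1 to 5. The induced libraries held 59.1, 29.6, 55.6, 109 and 223 CPM. Uninduced replicate 5 lay above induced replicate 2, and the other 4 uninduced libraries lay below all induced ones. The mean rose from 17.8 ± 16.8 to 95.2 ± 76.9 CPM (SD, n = 5 each), and the fitted change was 5.33-fold, a log2 fold change of 2.41 (SE 0.63, adjusted P = 0.0187, edgeR, Benjamini-Hochberg). Leaving out 1 library moved this fold by over 1.5 times in 2 cases, to a log2 fold change of 1.83 without induced replicate 5 and of 3.18 without uninduced replicate 5. The change exceeded 98.8% of the log2 fold changes of all genes tested. The call was lost with 1 surrogate variable in the model, at a log2 fold change of 1.92 (adjusted P = 0.0739, edgeR).

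The EEF1A1 counts can miss much of its tags, so the rise is that of the counted tags and need not be that of the mRNA. At 17.8 CPM uninduced, EEF1A1 was counted less often than its paralogue EEF1A2, given below. The last 75 bases of its transcripts that end between 73517515 and 73517522 have 29 to 35 other places in the genome with up to 74 or 75 identical bases, and tags that aligned to more than 1 place are listed apart from the gene counts. Of the more distal ends, those at 73515750 and 73515765 have no such place, and that at 73489308 has 187. For each gene count, between 0.561 and 1.33 tags of a transgene library aligned to more than 1 place. The 49 annotated EEF1A1 pseudogenes together held at most 10 counts in any uninduced library and at most 6 in any induced one. Which of the ends the counted tags came from was not tested. The study reports a general shift toward annotated 3′ ends on induction, and the part of such a shift in the EEF1A1 counts was not tested. The paralogue EEF1A2, the form of muscle and nerve, had 80.9 ± 3.04 CPM uninduced and 83.2 ± 23.2 CPM induced (SD, n = 5 each), a log2 fold change of 0.04 with a 95% confidence interval from −0.35 to 0.43.

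Of the eEF1B complex, the exchange factor of eEF1A, 2 of the 3 subunit mRNAs fell in counted tags. EEF1D (ENSG00000104529, chromosome 8 from 143579697 to 143599541, reverse strand) encodes the delta subunit, which holds an exchange domain. Its uninduced libraries held 2899, 3079, 3782, 2511 and 1772 CPM, and its induced libraries 1345, 2076, 1369, 1126 and 661 CPM. The only overlap was between uninduced replicate 5, the lowest of its group, and induced replicate 2, the highest of its group. The mean fell from 2809 ± 741 to 1316 ± 511 CPM (SD, n = 5 each), which was 2.13-fold lower in the fit, with a log2 fold change of −1.09 (SE 0.29, adjusted P = 0.0187, edgeR, Benjamini-Hochberg). The log2 fold change was −0.58 with offsets for GC content (adjusted P = 0.0855), with 1 surrogate variable −0.67 (adjusted P = 0.112), and without induced replicate 4 it was −1.04 (adjusted P = 0.0509), all in edgeR. ENSG00000279605 and ENSG00000254741, on the opposite strand, cover the last 75 bases of EEF1D, and both had 0 counts in all transgene libraries. Those bases of the canonical transcript have 1 other place in the genome, with 72 identical bases.

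EEF1G (ENSG00000254772, chromosome 11 from 62559596 to 62574086, reverse strand) encodes the gamma subunit, which holds the complex together. The uninduced libraries held 14.7, 14.7, 20.3, 16.9 and 12.2 CPM, and the induced libraries 9.84, 13.6, 9.90, 8.39 and 10.9 CPM. Induced replicate 2 lay above uninduced replicate 5, and all other induced libraries lay below the uninduced ones. The mean fell from 15.8 ± 3.05 to 10.5 ± 1.96 CPM (SD, n = 5 each), 1.50-fold in the fit, with a log2 fold change of −0.58 (SE 0.18, adjusted P = 0.0292, edgeR, Benjamini-Hochberg). This call held in 4 of 9 other settings and in 3 of 10 fits that left out 1 library, with adjusted P up to 0.188 in the first and 0.0740 in the second. The 3 fits that kept it left out uninduced replicate 5, induced replicate 2 or induced replicate 5. The last 75 bases of EEF1G have 3 other places in the genome, the closest with 70 identical bases. ENSG00000255508, which lies on the same strand and shares 68 of these 75 bases, had 0 counts in all 10 libraries. Tags that could not be given to a single gene are also listed apart, at 0.0127 to 0.0195 per gene count in these libraries. How many of them belong to EEF1G was not tested. The counts of EEF1G can therefore miss much of its tags, and the fall is that of the counted ones.

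EEF1B2 (ENSG00000114942, chromosome 2 from 206159585 to 206162928, forward strand) encodes the alpha subunit, which holds the other exchange domain. The uninduced libraries held 2744 to 3243 CPM and the induced libraries 1497 to 2920 CPM. Induced replicates 1, 2 and 3, at 2906, 2747 and 2920 CPM, lay within the uninduced range, whereas replicates 4 and 5 lay below it at 2232 and 1497 CPM. The log2 fold change was −0.24, with a 95% confidence interval from −0.66 to 0.18 (adjusted P = 0.319, edgeR, Benjamini-Hochberg). A fall of EEF1B2 as large as the fitted one of EEF1D lies outside this interval, although the difference between the genes was not tested. The last 75 bases before the EEF1B2 ends at 206162927 and 206162928 have 8 other places in the genome, the closest with 74 identical bases, and those before the end at 206162077 have 5, with up to 75.

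EEF1E1 (ENSG00000124802, chromosome 6 from 8073360 to 8102559, reverse strand) encodes AIMP3, which shares a fold with eEF1 subunits and is a scaffold protein of the multi-tRNA synthetase complex. The uninduced libraries held 16.4, 16.5, 14.7, 23.0 and 56.4 CPM, and the induced libraries 89.8, 30.7, 87.7, 64.3 and 79.0 CPM. As for EEF1A1, uninduced replicate 5 lay above induced replicate 2, and the other libraries did not overlap. The mean rose from 25.4 ± 17.6 to 70.3 ± 24.3 CPM (SD, n = 5 each), 2.76-fold in the fit, with a log2 fold change of 1.47 (SE 0.41, adjusted P = 0.0210, edgeR, Benjamini-Hochberg). The call was lost with 1 surrogate variable, at a log2 fold change of 0.84 (adjusted P = 0.0796), and when uninduced replicate 1 or 2 or induced replicate 1 or 3 was left out (adjusted P = 0.0515 to 0.0538, edgeR). The last 75 bases of its canonical transcript, and those before the end at 8073360, have no other place in the genome. Those before the ends at 8078494, 8089954 and 8089985 have 106, 196 and 194, with at most 63 identical bases. The end at 8097307 has 1, with 68. Which of these ends the counted tags came from was not tested. Its partners in the multi-tRNA synthetase complex, AIMP1 and AIMP2, had log2 fold changes of 0.40 (adjusted P = 0.215) and 0.45 (adjusted P = 0.178, edgeR). Neither passed the test.

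EEF2 (ENSG00000167658, chromosome 19 from 3976056 to 3985463, reverse strand) encodes the translocation factor. The uninduced libraries held 1611, 1691, 2113, 1545 and 1502 CPM, and the induced libraries 1227, 1334, 1280, 1127 and 865 CPM. Every induced library lay below every uninduced one. The mean fell from 1693 ± 246 to 1167 ± 185 CPM (SD, n = 5 each), 1.45-fold in the fit, with a log2 fold change of −0.54 (SE 0.17, adjusted P = 0.0281, edgeR, Benjamini-Hochberg). The last 75 bases of EEF2 have no other place in the genome. The call held in 4 of 9 other settings and in 5 of 10 fits that left out 1 library, and the log2 fold change was −0.15 with offsets for GC content (adjusted P = 0.455, edgeR) and −0.30 with scaling to total counts only (adjusted P = 0.0928, edgeR). It was lost without uninduced replicate 1 or 2 or induced replicate 1, 3 or 4, with adjusted P up to 0.0651 in edgeR.

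EEF2K (ENSG00000103319, chromosome 16 from 22206278 to 22288738, forward strand) encodes the calmodulin-dependent kinase that inhibits eEF2. It held 7.83 to 10.2 CPM in the uninduced and 7.42 to 10.3 CPM in the induced libraries, so the groups lay in the same range. The log2 fold change was −0.11, with a 95% confidence interval from −0.44 to 0.22 (adjusted P = 0.561, edgeR, Benjamini-Hochberg). EIF5A (ENSG00000132507, chromosome 17 from 7306999 to 7312463, forward strand) encodes eIF5A, the hypusine-bearing factor that helps the ribosome form difficult peptide bonds. It was counted 19 to 53 times per uninduced library and 34 to 71 times per induced library, or 1.85 ± 0.559 and 2.80 ± 0.873 CPM (SD, n = 5 each). The log2 fold change was 0.59, with a 95% confidence interval from −0.02 to 1.20 (adjusted P = 0.104, edgeR, Benjamini-Hochberg). The last 75 bases of EIF5A transcripts have 3 or 4 other places in the genome with up to 75 identical bases, so its counts too can miss tags.

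**Figure D2:**
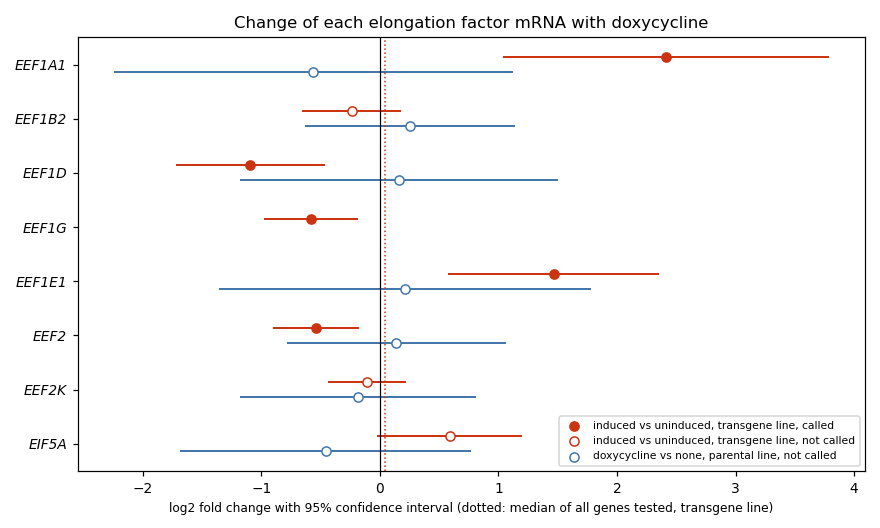
Log2 fold change of each elongation factor mRNA with its 95% confidence interval, induced over uninduced in the transgene line (red) and with over without doxycycline in the parental line (blue). Filled points passed an adjusted P below 0.05 in edgeR, and the dotted line is the median of all genes tested in the transgene line. EEF1A1 at 2.41, EEF1E1 at 1.47 and EEF1D at −1.09 are the most distant from 0, and no interval of the parental line excludes 0.

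In parental cells, doxycycline without the transgene was followed by no called change in the elongation factors. EEF1G, at 3 to 13 counts per library, did not pass the filter, and of the other 7 genes 0 were called and 0 had an unadjusted P below 0.05 in edgeR, with 0 called by DESeq2's Wald test. Over all 9124 genes tested, 0 were called in edgeR (0%), 267 had an unadjusted P below 0.05, and DESeq2 called 1. The 7 genes had a median log2 fold change of 0.14, beside −0.01 for all genes tested. None of the 7 had groups that did not overlap, which 9.52% of tested genes had.

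The parental libraries of each group differed widely among themselves for the same genes. EEF1A1 held 12.9, 58.5 and 21.9 CPM in untreated cells and 8.22, 46.3 and 7.33 CPM with doxycycline. EEF1D held 2046, 1361 and 1328 CPM in untreated cells and 1146, 616 and 3528 CPM with doxycycline. In both groups replicate 2 was the highest for EEF1A1, and treated replicate 2 was the lowest for EEF1D. EEF1E1 held 3.69, 46.9 and 18.3 CPM in untreated cells and 18.2, 39.1 and 22.0 CPM with doxycycline, again highest in replicate 2 of both groups. ENSG00000279605, opposite the end of EEF1D, held 528 to 2808 counts in the parental libraries, and ENSG00000261113, opposite the end of EEF2K, held 3 to 26, whereas both were at 0 in the transgene libraries. For each gene count, 1.11 to 1.50 parental tags were matched to no gene feature, against 0.0744 to 0.106 in the transgene line. Such tags need not lie outside genes, and what set the lines apart in this was not tested. Whether both lines were counted with the same strand setting is not given in the sources used here. This limits what the parental counts of all genes, most plainly EEF1D and EEF2K, and every difference between the lines can show.

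The intervals of the parental line were wide. The log2 fold change of EEF1A1 there was −0.56, with a 95% confidence interval from −2.25 to 1.12, that of EEF1D was 0.16 with an interval from −1.18 to 1.50, and that of EEF1E1 was 0.21 with an interval from −1.36 to 1.78. EEF2 held 1225 ± 247 CPM in untreated and 1349 ± 321 CPM in treated parental cells (SD, n = 3 each), a log2 fold change of 0.14 with an interval from −0.78 to 1.06. EEF1B2 held 1203 ± 158 and 1434 ± 234 CPM, EEF2K 20.2 ± 4.32 and 17.6 ± 4.45 CPM, EIF5A 16.6 ± 4.35 and 11.8 ± 6.67 CPM and EEF1G 4.25 ± 1.62 and 3.85 ± 2.36 CPM (SD, n = 3 each). A change of the size seen for EEF2 or EEF1D in the transgene line therefore could not be told from no change at this depth and number of libraries. The transgene-line change of EEF1E1 also lay inside its parental interval, and that of EEF1A1, 2.41, lay outside.

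Whether the lines responded differently was tested as an interaction over all 16 libraries, in which 2.98% of 12265 genes were called and 0 of the 8 elongation factors. At an unadjusted P below 0.05 there were 3, beside 3197 of the 12265 genes. The difference in log2 fold change, transgene line minus parental line, was 2.79 for EEF1A1 (adjusted P = 0.119), −1.51 for EEF1D (adjusted P = 0.167) and −0.91 for EEF2 (adjusted P = 0.124), all in edgeR with Benjamini-Hochberg adjustment. DESeq2 called 1, EEF1A1, in a fit that called 12.1% of all genes. In edgeR EEF1A1 was called when uninduced replicate 5 or treated parental replicate 2 was left out, beside 18.9% and 13.3% of all genes. It was also called with the replicate block, with GC offsets plus the block and with 1 surrogate variable, beside 1.81%, 1.54% and 11.8%. In the main fit, then, none of the 5 calls of the transgene line was shown to be particular to it.

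**Figure D3:**
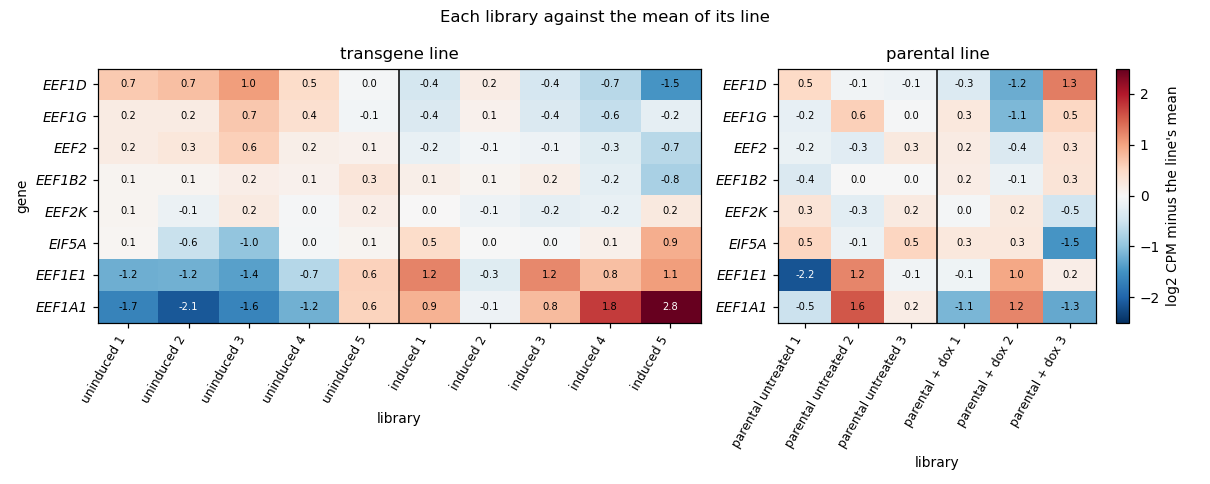
Log2 CPM of each elongation factor mRNA in each library minus the mean of the same line, with genes ordered by their log2 fold change in the transgene line. Red is above and blue below the line's mean, and the black line separates libraries without and with doxycycline. EEF1A1 and EEF1E1 run opposite to EEF1D in most transgene libraries. For the 5 called genes, uninduced replicate 5 and induced replicate 2 lie between the other libraries of the 2 groups.

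Within the transgene line the changes were graded across libraries rather than equal within a group. Uninduced replicate 5 was the highest of its group for EEF1A1 and EEF1E1 and the lowest for EEF1D, EEF1G and EEF2. Induced replicate 2 was the lowest of its group for EEF1A1 and EEF1E1 and the highest for EEF1D, EEF1G and EEF2. Induced replicate 5 was the highest for EEF1A1 and the lowest for EEF1D, EEF2 and EEF1B2. In the parental line, treated replicate 2 had the most EEF1A1 and EEF1E1 and the least EEF1D, EEF1G and EEF2 of its group.

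The genes called lower and higher also differed in base composition. The canonical transcripts of EEF1D, EEF2 and EEF1G are 64.6%, 59.9% and 54.5% G and C, and those of EEF1A1 and EEF1E1 are 42.5% and 36.4%. EIF5A at 56.6%, EEF2K at 50.2% and EEF1B2 at 47.0% did not pass the test. With offsets for GC content in each library, 0 of the 8 genes were called lower and 2 higher, EEF1A1 at a log2 fold change of 2.18 and EEF1E1 at 0.99. In the same fit 14.8% of all genes tested were called lower and 11.9% higher. These offsets used the GC content of whole canonical transcripts, and were fitted to induced and uninduced libraries alike. They therefore also take out any effect of induction that goes with GC content, which this refit cannot tell apart. The part of GC content in these changes was not tested otherwise.

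**Figure D4:**
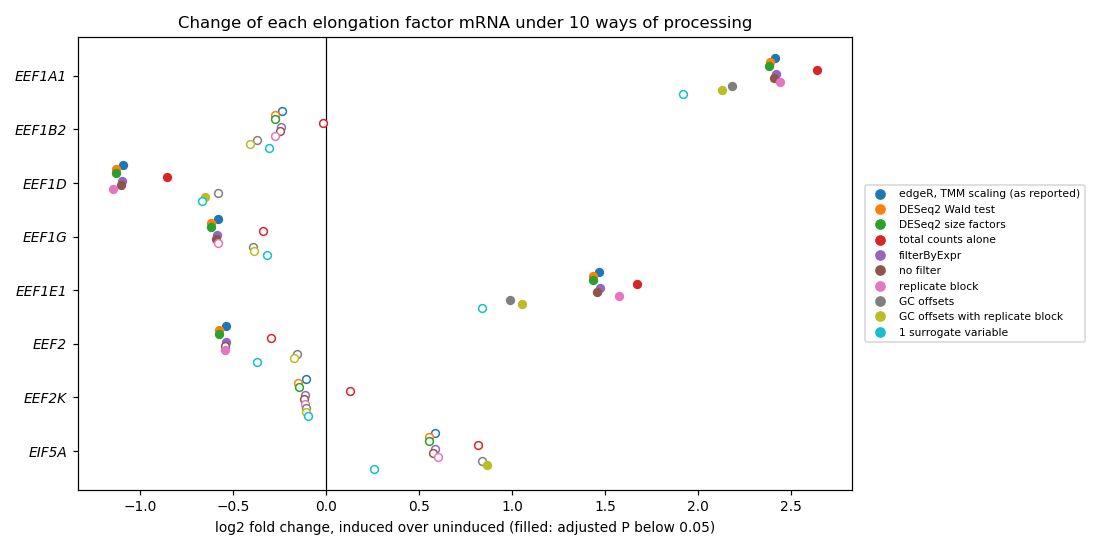
Log2 fold change of each elongation factor mRNA, induced over uninduced, under 10 ways of processing the same counts. Filled points passed an adjusted P below 0.05. EEF1A1 and EEF1E1 stay right of 0 and EEF1D left of it throughout, and EEF2 comes closest to 0 with offsets for GC content.

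The genes whose profiles over the 10 transgene libraries lay closest to each called gene were found by the root mean square difference of log2 CPM, each gene centred on its own mean. For EEF1D these were HOXC9, KIFC2 and ASNS, with differences of 0.09, 0.11 and 0.12, beside an SD of 0.77 for EEF1D itself. For EEF1E1 they were CHASERR, MOB1B and FAR1 (0.10, 0.12 and 0.13, beside an SD of 1.07), and for EEF2 they were STAG3L4, TUSC2 and NACC1 (0.06, 0.09 and 0.09, beside an SD of 0.36). For EEF1G they were USE1, CLCN7 and PTBP1, each at 0.09, beside an SD of 0.39. For EEF1A1 they were RPS15AP1, SAMD1 and CARD8-AS1 (0.25, 0.40 and 0.43, beside an SD of 1.63).

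Genes that act with or on the elongation factors were called about as often as all genes, so nothing particular to them is read from their counts. Of 45 listed, 44 were in the files and 41 were tested, and 5 were called lower and 11 higher. These were 39.0% of the tested ones, beside 39.8% of all genes, and the median log2 fold change was 0.05, beside 0.04. Without uninduced replicate 5 there were 9 and 17 and without induced replicate 2 there were 8 called lower, and the number called lower was 1 without uninduced replicate 2 or induced replicate 1 or 4 and 2 without uninduced replicate 1 or induced replicate 3. The number called higher was 7 without uninduced replicate 2 and 6 without induced replicate 1 or 4, in fits that also called fewer of all genes, as given above. In the parental line 0 of the 40 tested were called by edgeR, and 0 had an unadjusted P below 0.05. The values that follow are log2 fold changes, induced over uninduced, in edgeR with Benjamini-Hochberg adjustment.

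Among 10 paralogues and partners, 1 was called lower and 2 higher, 3 of 10 beside 39.8% of all genes. GTPBP2, a GTPase related to eEF1A that acts in ribosome rescue, rose by 3.79 (adjusted P = 0.0175), from 2.23 ± 2.43 to 31.4 ± 18.8 CPM (SD, n = 5 each). GTPBP1, its close relative, fell by 0.72 (adjusted P = 0.0177). SECISBP2, which brings the selenocysteine elongation factor to its mRNAs, rose by 0.65 (adjusted P = 0.0175) and was higher in every induced library, at 20.9 ± 2.26 against 13.4 ± 2.13 CPM (SD, n = 5 each). The selenocysteine elongation factor itself, EEFSEC, had −0.11 (adjusted P = 0.751), and EIF5A2, the paralogue of EIF5A, had −0.38 (adjusted P = 0.0843).

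Among 15 modifying enzymes, 11 were tested, of which 2 were called lower and 3 higher, 45.5% beside the same 39.8%. DPH6 and DPH3, of the pathway that builds diphthamide on eEF2, rose by 2.04 (adjusted P = 0.0175) and 1.31 (adjusted P = 0.0175). EEF1AKMT2, a lysine methyltransferase of eEF1A, rose by 1.31 (adjusted P = 0.0175), from 15.2 ± 6.71 to 38.0 ± 11.8 CPM (SD, n = 5 each). The 2 called lower were DOHH, the enzyme of the last step of hypusine synthesis on eIF5A, at −0.92 (adjusted P = 0.0237), and the diphthamide gene DPH2 at −0.53 (adjusted P = 0.0212), so the called diphthamide genes did not share 1 direction.

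Of 9 regulators of eEF2K, 1 was called lower and 3 higher, 44.4% beside 39.8% of all genes. CALM2, a calmodulin gene, rose by 1.95 (adjusted P = 0.0177), from 195 ± 146 to 753 ± 322 CPM (SD, n = 5 each), while CALM3, another calmodulin gene, had 0.57 (adjusted P = 0.186). The catalytic subunits of AMP-activated kinase, PRKAA2 and PRKAA1, rose by 0.93 (adjusted P = 0.0239) and 0.89 (adjusted P = 0.0248). RPS6KA1, which encodes the kinase RSK1, fell by 0.55 (adjusted P = 0.0478).

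Of 5 mitochondrial elongation factors, 1 was called lower and 2 higher, 3 of 5 beside 39.8% of all genes. TSFM, the exchange factor of the mitochondrial tRNA-delivering GTPase, rose by 2.51 (adjusted P = 0.0263), and GFM2, which recycles mitochondrial ribosomes, rose by 1.12 (adjusted P = 0.0251). TUFM, that GTPase, fell by 0.70 (adjusted P = 0.0194), from 232 ± 37.1 to 143 ± 34.2 CPM (SD, n = 5 each). Of 6 genes of termination and ribosome rescue, 16.7% were called, namely ABCE1, the ribosome recycling factor, which rose by 0.76 (adjusted P = 0.0184).

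**Figure D5:**
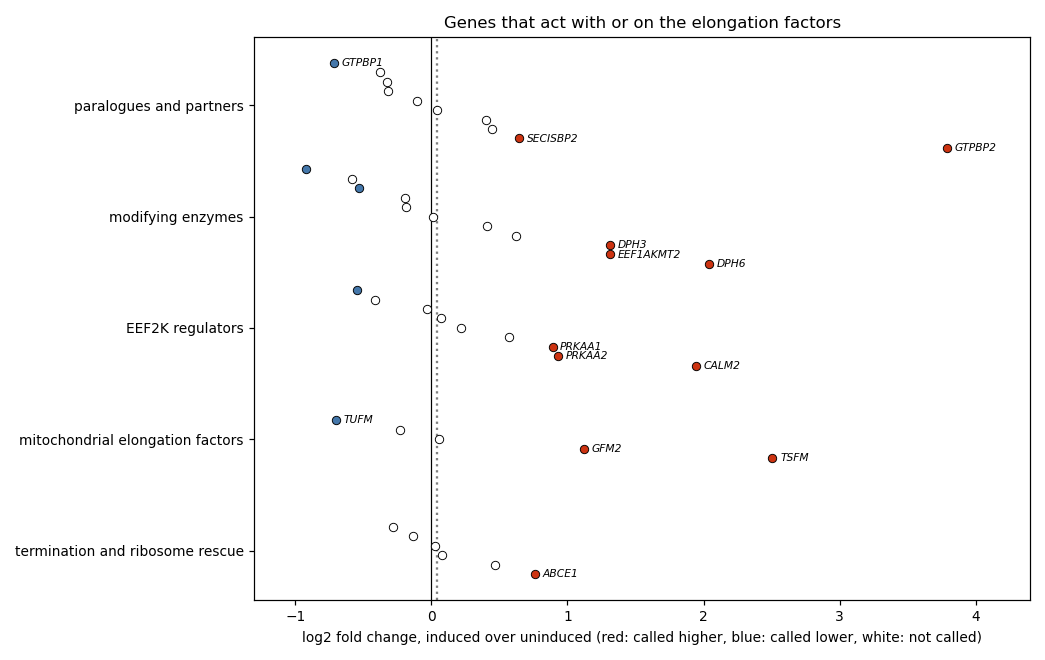
Log2 fold changes, induced over uninduced, of the 41 tested genes that act with or on the elongation factors, by list. Red points were called higher, blue points lower and white points neither, the dotted line is the median of all genes tested, and up to 3 called genes per list are named. The lists other than termination and ribosome rescue hold both red and blue points, beside 19.8% of all genes called lower and 20.0% higher.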

How the data were processed

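The authors deposited unnormalized counts of sequence tags per Ensembl gene for each of 16 libraries, which came from Lexogen's human (GRCh38) data reduction for QuantSeq REV. The aligner, annotation release, strand setting and handling of duplicates are not given in the sources used here. Summary entries and spike-in entries (92, all at 0) were left out.

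The 8 genes, the lists of related genes and the settings were chosen with earlier results of these data known. All 8 are named. Of the lists, the called genes with the largest changes are named, at most 3 a list, and DOHH, DPH2 and RPS6KA1, the other called ones, and uncalled paralogues were added after their values were seen. The most alike genes are the 3 with the smallest difference in profile.

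Genes whose base mean exceeded 20 were tested in R 4.3.3 with edgeR 4.0.16 (TMM, quasi-likelihood test, Benjamini-Hochberg adjustment over all genes tested). Each line was fitted on its own, and the interaction over 16 libraries. The SE was taken from the fold change and the F statistic. CPM means are over libraries. Fits were tested on simulated data. DESeq2 1.42.0 and sva 3.50.0 served as alternatives. Transcript ends were aligned to GRCh38 with minimap2 2.31. Library sizes of 1473286 to 23251834 gene counts set the precision, and P values measure the spread between cultures. Same-numbered libraries correlated at 0.0260 (transgene line) and −0.0598 (parental line) on average in their deviations from group means, so the numbers were not taken to pair them. No 2 libraries of a group were alike within sampling noise. The authors' own comparisons were not used.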

Additional observations from a re-analysis of the deposited data

Results flagged for a closer look

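In uninduced replicate 5, EEF1A1 at 47.6 CPM and EEF1E1 at 56.4 CPM lay farther above the other 4 uninduced libraries than Dixon's 95% critical value for 5 samples allows. In the other 4 libraries EEF1A1 was between 7.31 and 13.9 CPM and EEF1E1 between 14.7 and 23.0 CPM. Without this library the log2 fold changes, induced over uninduced, were 3.18 for EEF1A1 and 1.98 for EEF1E1. Chance alone marks about 1 in 20 groups in this way, and only the groups of 5 were examined. The cause was not tested.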

How the results depend on the processing

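Of the 8 genes, the 3 called lower became 1 with total counts alone and with offsets for GC content plus the replicate block. They became 0 with those offsets alone or 1 surrogate variable. In that order these fits called 10.7%, 14.3%, 14.8% and 0% of all genes lower. When 1 library was left out the count was 0 to 3, beside 7.14% to 27.4% of all genes. The 2 called higher became 0 with the surrogate variable, beside 1 of all genes tested. They became 1 to 2 when 1 library was left out, beside 6.99% to 31.2% of all genes. The libraries whose removal changed these counts are named in the report. The median of −0.17 turned to 0.058 with total counts alone, which moved the median of all genes tested from 0.04 to 0.28, and EEF2K turned from −0.11 to 0.13 there without being called. EIF5A was called in 1 setting, the offsets with the block, at 0.87 (adjusted P = 0.0256, edgeR), where 16.8% of all genes were called higher. With the replicate number as a block the counts were 2 lower and 2 higher, beside 17.3% and 22.5% of all genes. In that fit EEF1A1 was at 2.44 (SE 0.19, adjusted P = 0.00622) and EEF1D at −1.15 (SE 0.19, adjusted P = 0.0160), while EEF1G was not called (SE 0.20, adjusted P = 0.0524, edgeR). The numbers are not stated to pair the libraries and were not taken to do so. Same-numbered ones of the transgene line correlated between −0.373 and 0.625, which does not settle whether they are paired. The 5 related genes called lower became 8 by DESeq2, 3 with total counts alone and 0 with the surrogate variable. These fits called 23.5%, 10.7% and 0% of all genes lower. Without 1 library there were 1 to 9, beside 7.14% to 27.4% of all genes. The 11 called higher became 7 with GC offsets, beside 11.9% of all genes, and 0 with the surrogate variable, beside 1 gene. Without 1 library there were 6 to 17, beside 6.99% to 31.2% of all genes. In the parental line 0 of the 7 genes tested were called in the 9 other settings and the 6 fits without 1 library. EEF1G was tested there only without a filter, and was not called. In the interaction 0 became 1, EEF1A1, by DESeq2, with the block, with GC offsets plus the block and with the surrogate variable. These fits called 12.1%, 1.81%, 1.54% and 11.8% of all genes. Without 1 library 0 became 0 to 1, beside 0% to 18.9% of all genes. Runs of pyrimidines were at the start of 3 genes and within 5 bases of it in 4. The cause of these shifts was not tested. Depth limits EEF1G and EIF5A in the parental libraries most, at 3 to 13 and 5 to 64 counts.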
